A study of Arabidopsis thaliana with 8 samples.

Results

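LAS, IAA31, TCP15 and CCL are genes of shoot growth, auxin response and light or clock regulation whose transcripts were measured in roots and leaves of Arabidopsis thaliana. They were taken from the array by annotation: a probe was kept when the annotation of the array platform assigns its number to that gene and no other. This gave 4 genes with 1 probe each, out of 692 probes annotated to a single gene and 3439 probes in all. The genes were chosen with their root and leaf intensities known, so the tissue differences of these 4 probes are given as a description, without a test.

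The study compared root material with leaves of wild-type plants of the Columbia 0 ecotype, with total RNA on 4 root and 4 leaf arrays. Both groups share the genotype, and plant age, light regime, hour of harvest and pooling of plants are not given in the labels. Nothing in the labels says that replicates are separate plants, so p-values measure only the spread between these arrays, which may be technical. Intensities are spot brightnesses on a relative linear scale. A ceiling near 100 was entered as a setting and was not computed from the values.

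LAS (LATERAL SUPPRESSOR) is a GRAS-family regulator needed to start axillary meristems, the buds in leaf axils from which branches grow. IAA31 belongs to the Aux/IAA family, nuclear repressors that bind auxin response factors. In their usual form, these repressors are destroyed when auxin joins them to their receptor. Whether IAA31 follows that usual form was not examined here. IAA20 and IAA30 are close relatives of IAA31. TCP15 is a class I TCP transcription factor that acts on cell proliferation in growing shoot organs. CCL (CCR-LIKE) is known for an unstable transcript whose level is set by light and the circadian clock.

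The arrays split in brightness, which bears on all the values below. Summed intensity was 3479 and 3505 on root replicates 1 and 2, but 2868 and 2923 on root replicates 3 and 4. In leaf it was 3400 and 3426 on replicates 1 and 2, but 3021 and 3068 on replicates 3 and 4. The median probe also differed between tissues, at 0.258 to 0.317 on root arrays and 0.15 to 0.176 on leaf arrays, and between 12.8% and 15.1% of root values and between 20.0% and 22.8% of leaf values were exactly 0. None of the 32 values of the 4 genes was 0. Among single-gene leaf markers, 4 of 5 tested probes fell in root (limma, adjusted p of at most 5.11e-04 each) and PSBW, a photosystem II subunit, rose (limma, adjusted p = 1.37e-03). PSBW averaged 70.8 in root and 25.1 in leaf, the reverse direction of the other tested leaf markers. SBPASE, a Calvin cycle enzyme, was listed at 0 on all arrays, those of leaf included. No probe named a gene of the root marker list, so the root label was not checked. Gene names, those of LAS, IAA31, TCP15 and CCL among them, rest on the platform annotation by probe number. Which transcript each spot measured was not tested.

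The shoot regulator LAS and the auxin repressor IAA31 were dimmer in root than in leaf, while the growth regulator TCP15 and the clock- and light-regulated CCL were brighter in root. On each of the 4 probes, no root array overlapped a leaf array, either in the deposited intensities or after normalisation. Of all 3298 probes tested, 44.2% were separated in this way after normalisation, 22.2% with root higher and 22% with root lower, so separation is common on these arrays and nothing is read from it here. In bulk tissue, fewer cells that make a transcript and less of it per cell cannot be told apart.

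**Figure D1:**
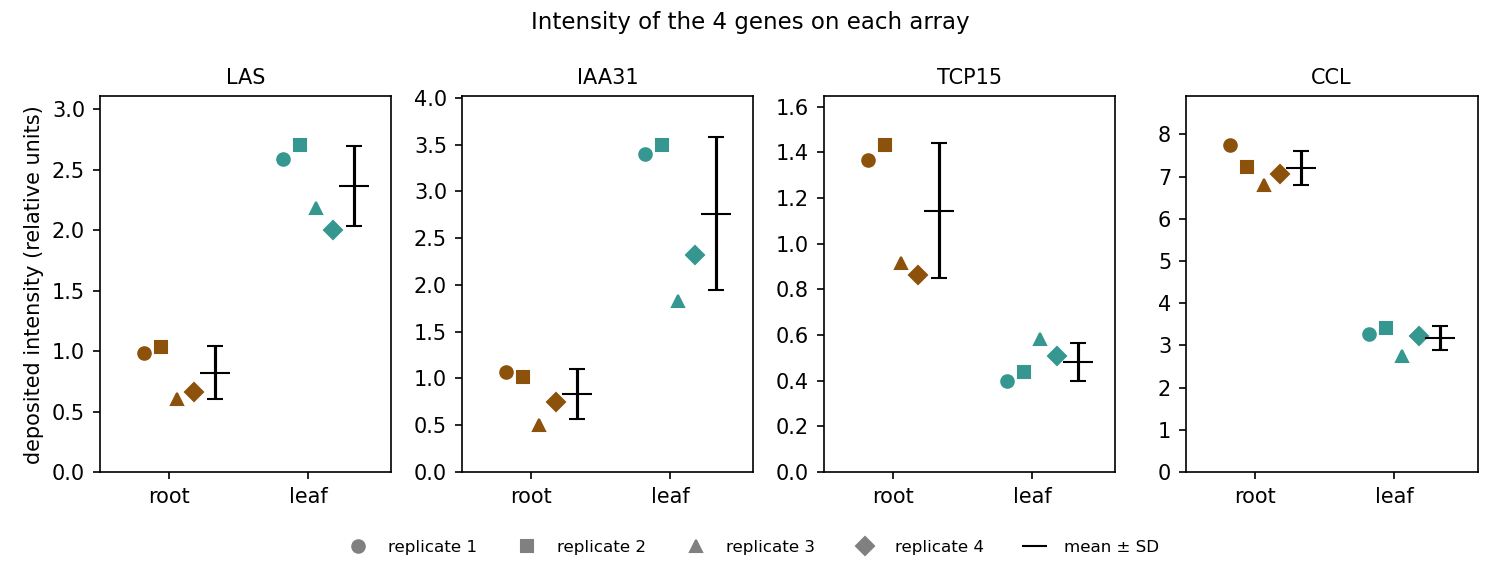
Deposited intensity (relative units, each vertical axis starting at 0) of LAS, IAA31, TCP15 and CCL on the 4 root and 4 leaf arrays; symbols mark the replicate number and the bar the mean ± SD. LAS and IAA31 lie lower in root, TCP15 and CCL lie higher in root, and in none of the 4 genes do the tissues overlap.

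LAS (AT1G55580, probe 4053) read 0.985, 1.03, 0.606 and 0.662 on root replicates 1 to 4, against 2.59, 2.70, 2.18 and 1.997 on leaf replicates 1 to 4. The brightest root array was thus below the dimmest leaf array, and in both tissues replicates 1 and 2 were brighter than replicates 3 and 4. The mean was 0.821 ± 0.219 in root and 2.37 ± 0.333 in leaf (SD, n = 4 arrays each), so that leaf was 2.88-fold brighter. After quantile normalisation and log2, the root minus leaf difference was -1.61 ± 0.17 (SE). The LAS spot was brighter than 76.7% to 82.3% of all spots on root arrays and brighter than 93.6% to 94.3% on leaf arrays, a place within each array that needs no scaling between arrays. Spot brightness depends on the probe as well as the transcript, so these places do not rank LAS against other genes.

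IAA31 (AT3G17600, probe 247) read 1.07, 1.02, 0.498 and 0.751 in root, against 3.40, 3.49, 1.83 and 2.32 in leaf. Root replicate 3 was the dimmest root array and leaf replicate 3 the dimmest leaf array. The mean was 0.834 ± 0.264 in root and 2.76 ± 0.818 in leaf (SD, n = 4 each), 3.31-fold brighter in leaf, with a log2 difference after normalisation of -1.80 ± 0.26. Leaf over root within the same replicate number was 3.19, 3.42, 3.68 and 3.08, so this ratio varied less than the intensities, whose coefficients of variation were 31.7% in root and 29.6% in leaf. In both tissues the spread was chiefly the step between replicates 1 and 2 and replicates 3 and 4, whose means were 1.04 and 0.625 in root and 3.45 and 2.07 in leaf. For comparison, the median probe above 0 on every array of the tissue was 1.23 times as bright on replicates 1 and 2 as on 3 and 4 in root and 1.04 times in leaf, and IAA31 stood at 1.67 and 1.66.

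A further probe names IAA31 together with IAA20 and IAA30, and its values ran the other way. Probe 751 read 0.401, 0.483, 0.583 and 0.543 in root, against 0.356, 0.222, 0.174 and 0.139 in leaf, so the tissues did not overlap as deposited. After normalisation they overlapped, and the log2 difference of 0.65 ± 0.35 did not pass the threshold (limma, adjusted p = 0.169). The result hung on the replicates and on the scaling. With replicates 1 and 2 alone the difference was -0.14, and with replicates 3 and 4 alone it was 1.38 and passed (limma, adjusted p = 0.0190). As deposited it was 1.25 and passed as well (limma, adjusted p = 0.0140), beside an all-probe median of 0.80; over the 21 alternatives the difference ranged from -0.14 to 1.38. Here replicates 1 and 2 were the dimmer root arrays, unlike in the IAA31 probe, where they were the brighter ones. What share of this spot's signal came from each of the 3 genes was not tested, nor was the contrast between the probes.

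**Figure D2:**
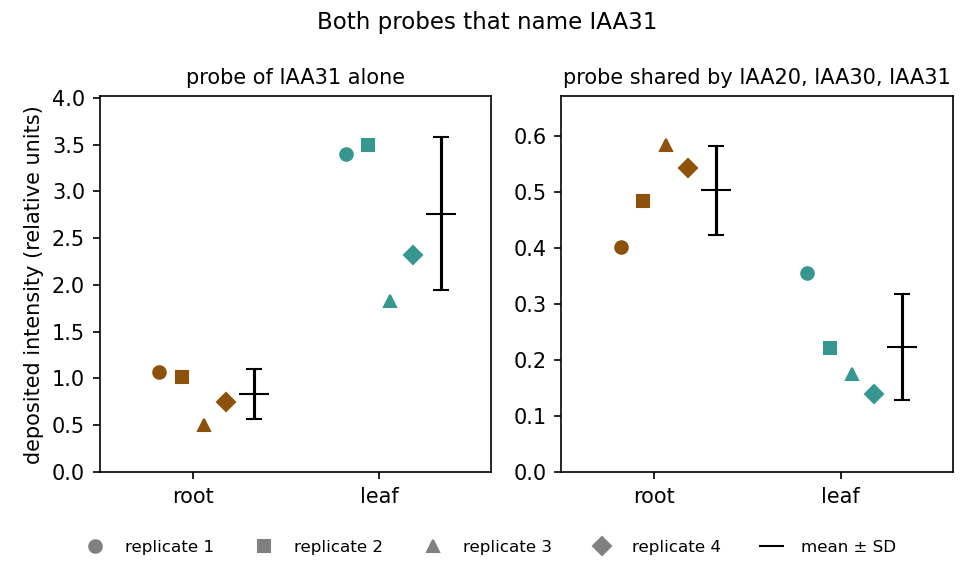
Deposited intensity (relative units, axes starting at 0) of the probe that names IAA31 alone and of the probe shared by IAA20, IAA30 and IAA31, on 4 root and 4 leaf arrays with the mean ± SD. Root is lower on the first (0.834 against 2.76) and higher on the second (0.503 against 0.223), and the vertical scales differ.

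TCP15 (AT1G69690, probe 4214) read 1.37, 1.43, 0.917 and 0.864 in root, against 0.397, 0.439, 0.585 and 0.508 in leaf. Every root array was above every leaf array, but the tissues lay closer on replicates 3 and 4. The mean was 1.14 ± 0.295 in root and 0.482 ± 0.0822 in leaf (SD, n = 4 each), 2.37-fold brighter in root, and the log2 difference was 0.92 ± 0.20 after quantile normalisation and 0.39 ± 0.20 with arrays centred on their medians. Root over leaf within the same replicate number was 3.44 and 3.25 on replicates 1 and 2, but 1.57 and 1.70 on replicates 3 and 4. Of the 4 genes, TCP15 was the one whose replicate step ran in opposite directions, since replicates 1 and 2 were 1.57 times as bright as 3 and 4 in root and 0.765 times as bright in leaf. Fitted apart, the log2 difference was 1.31 ± 0.15 on replicates 1 and 2 and 0.54 ± 0.16 on replicates 3 and 4; the contrast of these values was not tested.

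CCL (AT3G26740, probe 2653) read 7.74, 7.22, 6.79 and 7.07 in root, against 3.26, 3.41, 2.75 and 3.23 in leaf. The dimmest root array was well above the brightest leaf array, and neither tissue showed the wide replicate step of the other 3 genes. The mean was 7.20 ± 0.397 in root and 3.16 ± 0.285 in leaf (SD, n = 4 each), 2.28-fold brighter in root, with coefficients of variation of 5.50% in root and 8.99% in leaf, the smallest of the 4 genes as deposited. Root over leaf within the same replicate number was 2.37, 2.12, 2.47 and 2.19. After quantile normalisation the log2 difference was 1.45 ± 0.17, but it was 0.36 ± 0.19 with arrays centred on their medians, and the difference as deposited, 1.19, stood 0.39 above the all-probe median. The spot was brighter than 98.1% to 98.5% of spots on root arrays and than 95.3% to 96.0% on leaf arrays, near the top of both.

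Over all 3298 tested probes, limma called 664 higher in root (20.1%) and 729 lower in root (22.1%) at a Benjamini-Hochberg adjusted p below 0.05, together 42.2%. With replicates 1 and 2 averaged and replicates 3 and 4 averaged, these counts were 336 and 370. No call is given for the 4 genes, which were selected on annotation with these same root and leaf intensities in view. Their median log2 difference was -0.34, against 0.05 over all tested probes, but a median over 2 genes on each side describes neither pair. In the distribution of all differences, 13.9% of probes lay below IAA31 and 17.4% below LAS, while 68.2% lay below TCP15 and 77.1% below CCL. All 4 differences were therefore of a size that many probes reached or passed. Within tissues, the SD on the log2 scale was 0.145 for LAS, 0.154 for CCL, 0.229 for TCP15 and 0.336 for IAA31. The median over all tested probes was 0.621, but it includes dim probes and probes at 0 on some arrays. Spots of the 4 genes were never at 0 and were brighter than 70.6% to 98.5% of spots. Their spread was not compared with that of equally bright probes.

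**Figure D3:**
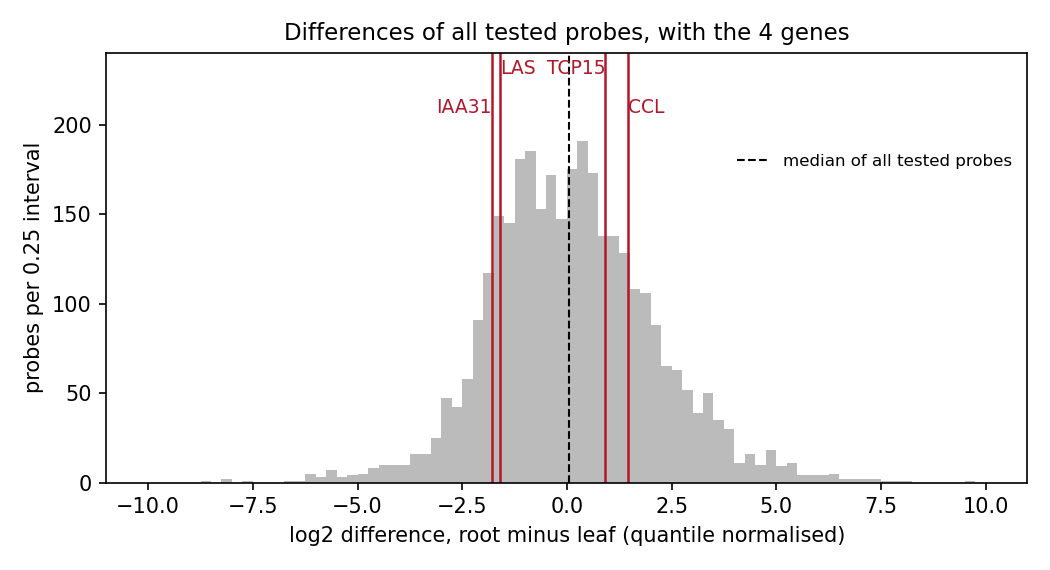
Histogram of the log2 difference, root minus leaf, of all 3298 tested probes after quantile normalisation (vertical axis, probes per interval), with the 4 genes as solid lines and the median of all probes, 0.05, as a dashed line. LAS and IAA31 lie on the left flank, TCP15 and CCL on the right flank, all within the bulk of the distribution.

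Scaling between arrays set how far TCP15 and CCL stood from other probes. On the intensities as deposited, the median probe itself was higher in root by 0.80 on the log2 scale, and 1138 probes were called higher and 492 lower in root. With the arrays scaled to a common mean the counts were 1154 and 499, and the median was 0.82. Relative to that median, the deposited difference was 0.42 for TCP15 and 0.39 for CCL, against 0.87 and 1.40 after quantile normalisation. When arrays were centred on their medians, TCP15 differed by 0.39 ± 0.20 and CCL by 0.36 ± 0.19. For LAS and IAA31 it went the other way: relative to the median probe they stood at -2.36 and -2.54 as deposited, and at -1.66 and -1.85 after quantile normalisation. The direction of all 4 genes was kept under each of the 21 alternatives. For these probes, a raised floor, missing zeros, dim probes, blocks, variance model and averaged pairs leave the estimates unchanged by construction. Leaving out arrays, fitting a replicate subset, adding an offset or using deposited values could hardly reverse probes whose tissues do not overlap. The same holds on a common mean, since summed intensities differed between arrays by a smaller factor than the tissues did. Direction was thus open to change chiefly with arrays centred on their medians, so the count of 21 says little.

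**Figure D4:**
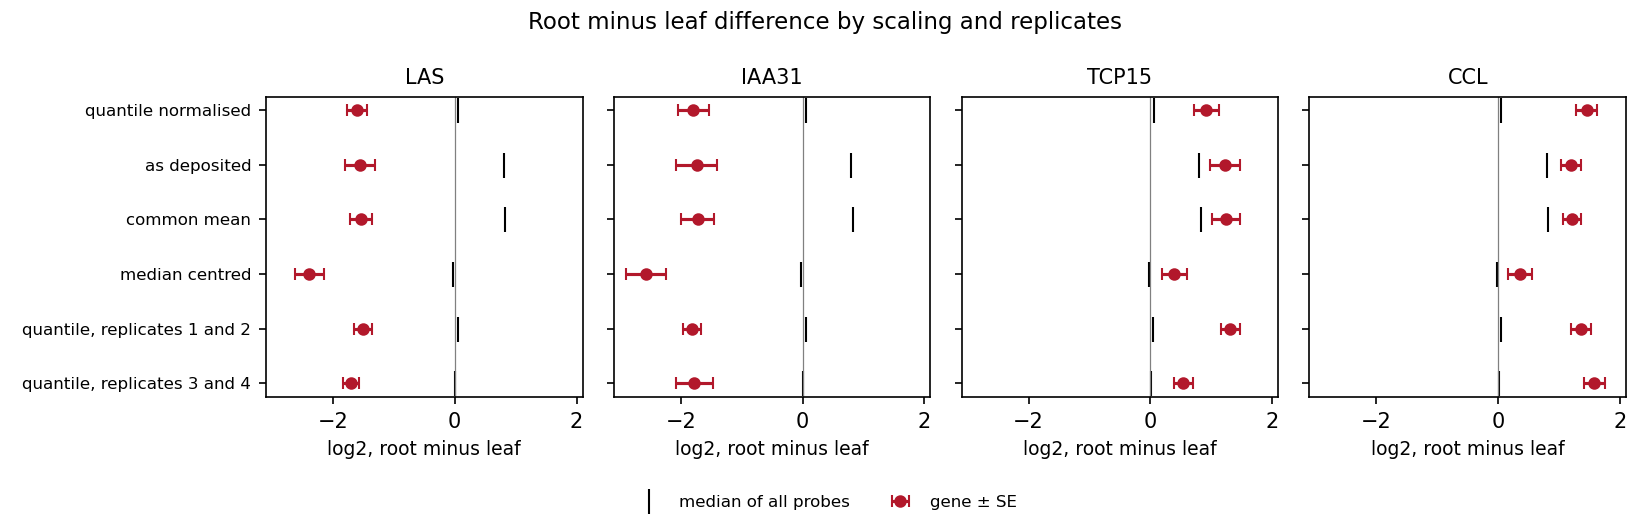
Log2 difference, root minus leaf, of each gene with its SE (circles) under 4 scalings and in each replicate subset, with the median difference of all probes under the same setting (vertical ticks). LAS and IAA31 stay far below the median throughout, while TCP15 and CCL come within 0.42 and 0.39 of it as deposited.

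Among the genes looked up, others of the same pathways had no annotated probe of their own. The 8 lists held Aux/IAA and auxin response factor genes, auxin receptors, auxin synthesis and transport, GRAS and TCP families, shoot meristem regulators, the clock and light signalling. Their 503 symbols matched 412 genes in RefSeq, and symbols without a match could not be looked up. Of 3439 probes, 692 were annotated to a single gene and 870 to several, and the rest could not be searched by name. Besides the 4 genes described here, 0 of the 412 genes had a single-gene probe. Only 3 shared probes named any: the probe of IAA20, IAA30 and IAA31, a probe of IAA20 and IAA30, and a probe of the auxin synthesis genes YUC2 and YUC6. Of these 3, 0 passed limma, beside 42.2% of all tested probes, and 0 had an unadjusted p below 0.05. The probe of IAA20, IAA30 and IAA31 passed under some alternatives, and nothing on the pathways is read from 3 probes. The probe of IAA20 and IAA30 alone (probe 1698) was listed at 0 on 3 root and 4 leaf arrays and read 0.0764 on root replicate 4. The probe of YUC2 and YUC6 (probe 1438) was listed at 0 on 2 root and 3 leaf arrays and read at most 0.0432 in root and 0.0265 in leaf, so both lay near the lower limit of measurement.

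The single-gene probes most like each gene were ranked by Pearson correlation of normalised log2 values over the 8 arrays, among 392 probes above 0 on all arrays. As the arrays form a root and a leaf cluster, these correlations mainly restate the tissue difference. LAS was followed most closely by LHB1B2, a light-harvesting antenna protein gene (r = 0.995), AT5G52530 (0.994) and AT2G32470 (0.994). LHB1B2 averaged 0.481 in root and 22.5 in leaf, a far wider gap than that of LAS, so likeness in pattern is not likeness in size. Nearest to IAA31 were AT3G47100 (r = 0.987), AT5G47890 (0.985) and AT1G06510 (0.982). For TCP15 they were AT4G22490 (r = 0.992), AT4G17650 (0.967) and AT2G02590 (0.965), and for CCL they were AT1G76450 (r = 0.996), AT3G06200 (0.995) and AT4G18180 (0.995). Correlations above 0.95 were reached by 51 probes with LAS, 35 with CCL, 25 with IAA31 and 7 with TCP15. TCP15 had the fewest close matches of the 4.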

How the data were processed

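The deposited file holds 1 intensity per probe and array. How the authors hybridised, corrected and scaled the arrays is not given in the sources used here. Groups and replicate numbers were read from the sample titles, gene names from the platform annotation, and loci from RefSeq (TAIR10.1, for names; no coordinates are printed).

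After quantile normalisation, values below 0.00582, the 1st percentile of all positive deposited intensities, were raised to it before log2. Of the probes, 141 never exceeded this floor and were dropped. The tissues were compared with limma 3.58.1 (R 4.3.3), with tissue as its only term, two-sided, with Benjamini-Hochberg adjustment and a threshold of 0.05. The script was tested on simulated data in which arrays varied independently. Real root arrays paired off, with r = 0.924 for replicates 1 and 2, 0.968 for 3 and 4, and 0.885 to 0.890 across. The simulation therefore did not check the calls under such pairing. Differences are root minus leaf with a moderated standard error, and means ± SD are of deposited intensities. The number of arrays limits the precision.

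Genes, lists and settings were chosen with earlier results of these data known. Named genes were the 4 genes, tested list probes and the 3 most like probes per gene. Shared list probes were named because no other matched list gene had an annotated probe of its own. Alternatives covered scaling, floor, dim probes, blocks, variance model and arrays left out.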

Additional observations from a re-analysis of the deposited data

How the results depend on the processing

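All 4 genes kept their direction under all 21 alternatives, several of which leave the estimates unchanged by construction. Most of the others could hardly reverse probes whose tissues do not overlap, and direction was open to change chiefly under median centring. Leaving out each array gave -1.71 to -1.53 for LAS, -1.94 to -1.64 for IAA31, 0.82 to 1.02 for TCP15 and 1.40 to 1.53 for CCL. Log2 differences that moved by more than the replicate SD were, centred on array medians, -2.39 for LAS, -2.57 for IAA31, 0.39 for TCP15 and 0.36 for CCL; as deposited, 1.22 for TCP15 and 1.19 for CCL; and on a common mean, 1.24 and 1.21. TCP15 also moved to 1.31 with replicates 1 and 2 and to 0.54 with replicates 3 and 4. With replicates averaged in pairs, an alternative chosen after seeing the data, the 4 differences were unchanged by construction. Their standard errors were then 0.33 for LAS, 0.39 for IAA31, 0.36 for TCP15 and 0.33 for CCL. Without averaging, these were 0.17, 0.26, 0.20 and 0.17. In the averaged fit, 336 probes were called higher and 370 lower in root. As deposited 1138 were called higher in root and on a common mean 1154. The probe of IAA20, IAA30 and IAA31 differed by -0.14 with replicates 1 and 2, by 1.38 with replicates 3 and 4, by 1.25 as deposited and by 1.27 on a common mean; in the last 3 it was the 1 shared list probe called higher. With values of 0 set to missing, the probe of YUC2 and YUC6 kept only 0.034 and 0.0432 in root and 0.0265 in leaf. Nothing is read from a fit on so few values. The cause of the changes between settings was not tested.

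Same-numbered root and leaf arrays deviated together only weakly (r = 0.090 to 0.126), each correlating best with its own number, a hint from the data and not from the design. With the replicate block, 596 probes were called higher and 648 lower in root, and the standard error was 0.174 for LAS, 0.171 for IAA31, 0.240 for TCP15 and 0.170 for CCL.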
